A study of Mus musculus with 2 samples.

Results

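Mef2a, Mef2b, Mef2c and Mef2d are the 4 mouse genes of the myocyte enhancer factor 2 family, out of 21884 protein-coding genes with a unique symbol in the annotation used. Their open chromatin was read in each gene with 50 kb on either side, at the positions of the GENCODE M21 gene models on the mm10 assembly. The members were chosen by family and not by any measured value, but with earlier results of these data known. DNase-seq, which finds chromatin that the nuclease DNase I can cut, was available as 2 libraries of hippocampus. They came from female mice aged 14 days of the hybrid strain B6CASTF1/J. The source is given as layer of hippocampus tissue, with no layer named. The labels call the libraries biological replicates 1 and 2 of a single group, name 3 females for each and give both the same donor identifier. Nothing in the labels says that the libraries came from separate animals or pools, so the spread between them may be technical. With 1 group there was no contrast between conditions, and the values are descriptions.

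MEF2 proteins bind A/T-rich DNA as dimers through a MADS box and an adjoining MEF2 domain, and they were first known from muscle genes. Class IIa histone deacetylases hold them in a repressing state, and calcium signals through calcineurin, CaM kinases and MAP kinases turn them into activators. In neurons they act on activity-dependent genes and on the number of excitatory synapses. Mef2c is also known from interneurons, microglia, endothelium, B cells and heart muscle, so that a bulk hippocampus library can hold its open chromatin from several cell types. In such a library, a site open in few cells and a site weakly open in many cells cannot be told apart.

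The regulatory sequences on which the results turn are given first. They are the letters of the C57BL/6J reference, while the animals also carried CAST/EiJ alleles. The promoter windows come from RefSeq (GRCm38.p6, the assembly that mm10 names), run from 250 bases before a gene's start to 50 bases after it, and are written 5′ to 3′ on the gene's strand. The Mef2a window, chr7:67372809-67373108 on the minus strand, has 27 CpG dinucleotides and a GC content of 62.3%. Capitals mark its match to the MEF2 consensus, the letters described for binding by the family's own proteins. Binding was not measured.

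Mef2a promoter: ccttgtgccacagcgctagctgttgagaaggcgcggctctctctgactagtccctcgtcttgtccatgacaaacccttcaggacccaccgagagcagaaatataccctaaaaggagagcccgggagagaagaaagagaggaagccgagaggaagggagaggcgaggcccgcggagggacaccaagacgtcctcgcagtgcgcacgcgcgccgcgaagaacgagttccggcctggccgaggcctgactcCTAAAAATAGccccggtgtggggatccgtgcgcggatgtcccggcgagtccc

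The Mef2d window, chr3:88142122-88142421 on the plus strand, has 24 CpG dinucleotides and a GC content of 72.0%. Its capitals mark the 83 bases that lay in a footprint of both libraries, that is, in a short stretch protected from cutting.

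Mef2d promoter: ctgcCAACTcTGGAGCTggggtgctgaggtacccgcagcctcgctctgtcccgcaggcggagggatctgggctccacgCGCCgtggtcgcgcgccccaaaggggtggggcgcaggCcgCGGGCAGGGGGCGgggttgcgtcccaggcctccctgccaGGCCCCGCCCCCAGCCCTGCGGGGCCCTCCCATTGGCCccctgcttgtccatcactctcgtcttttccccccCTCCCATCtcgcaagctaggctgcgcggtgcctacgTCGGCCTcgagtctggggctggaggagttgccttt

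Mef2b has a window of its own at chr8:70152511-70152810 on the plus strand, with 11 CpG dinucleotides and capitals for the 18 bases in footprints of both libraries. Its upstream start instead lies beside a peak shared with other genes. The part of that peak common to both libraries, chr8:70139141-70139340 on the plus strand, is shown with capitals for a palindrome made of overlapping NRF1 letters, GCATGCGC.

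Mef2b own promoter: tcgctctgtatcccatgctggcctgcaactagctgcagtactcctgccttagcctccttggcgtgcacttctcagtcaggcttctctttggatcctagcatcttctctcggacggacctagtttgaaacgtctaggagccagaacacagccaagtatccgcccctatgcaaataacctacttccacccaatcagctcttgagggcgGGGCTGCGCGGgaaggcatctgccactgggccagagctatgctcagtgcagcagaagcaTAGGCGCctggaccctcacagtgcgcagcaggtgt

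Mef2b shared promoter peak: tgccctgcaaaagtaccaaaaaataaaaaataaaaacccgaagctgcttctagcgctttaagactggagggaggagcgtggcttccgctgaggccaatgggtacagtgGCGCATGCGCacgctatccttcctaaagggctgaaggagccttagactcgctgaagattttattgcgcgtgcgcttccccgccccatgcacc

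Mef2c is shown by the windows of a closed and of an open start. The window of its most upstream start, chr13:83503784-83504083 on the plus strand, holds 1 CpG dinucleotide and has a GC content of 35.7%. The window at chr13:83523406-83523705, 10 CpG dinucleotides and 47.0% GC, overlaps the edge of an open region. Neither held a footprint of both libraries, so neither has capitals.

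Mef2c closed upstream promoter: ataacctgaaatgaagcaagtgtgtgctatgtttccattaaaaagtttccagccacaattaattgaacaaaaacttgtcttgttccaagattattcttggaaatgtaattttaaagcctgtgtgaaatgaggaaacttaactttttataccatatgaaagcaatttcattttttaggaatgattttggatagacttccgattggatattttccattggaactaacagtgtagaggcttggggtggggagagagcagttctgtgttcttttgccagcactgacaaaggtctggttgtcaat

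Mef2c open promoter: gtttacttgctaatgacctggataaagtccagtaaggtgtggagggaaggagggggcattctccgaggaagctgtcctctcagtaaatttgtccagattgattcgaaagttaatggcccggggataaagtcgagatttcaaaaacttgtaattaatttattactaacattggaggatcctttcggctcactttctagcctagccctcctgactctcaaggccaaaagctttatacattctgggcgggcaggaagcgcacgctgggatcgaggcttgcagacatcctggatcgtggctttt

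The distal sequences are the parts of the strongest peaks that were common to both libraries, on the plus strand. The site upstream of Mef2d, chr3:88138361-88138540, has capitals for a CRE, the full palindrome TGACGTCA bound by CREB and related factors. The site downstream of Mef2c, chr13:83715061-83715280, and a site in a Mef2c intron, chr13:83654981-83655160, have capitals for the bases in footprints of both libraries, 85 and 59 bases.

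Mef2d upstream site: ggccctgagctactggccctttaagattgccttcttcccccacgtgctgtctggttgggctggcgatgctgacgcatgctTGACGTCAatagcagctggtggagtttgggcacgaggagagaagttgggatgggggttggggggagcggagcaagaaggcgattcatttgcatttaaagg

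Mef2c downstream site: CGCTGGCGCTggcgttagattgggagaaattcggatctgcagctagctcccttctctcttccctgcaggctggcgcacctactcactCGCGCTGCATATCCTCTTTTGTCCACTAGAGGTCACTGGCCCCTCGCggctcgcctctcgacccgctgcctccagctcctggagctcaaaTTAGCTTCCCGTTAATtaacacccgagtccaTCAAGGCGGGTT

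Mef2c intron site: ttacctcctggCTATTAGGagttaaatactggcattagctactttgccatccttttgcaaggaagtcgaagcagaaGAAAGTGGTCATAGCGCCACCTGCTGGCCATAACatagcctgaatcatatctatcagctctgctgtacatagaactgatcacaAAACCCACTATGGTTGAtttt

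A further pair of Mef2c intron sites was picked after their letters and values were seen. The peak chr13:83603959-83604140, found in replicate 2 alone, holds the MEF2 consensus at 2 places, in capitals. The site chr13:83537281-83537460, found in both libraries, holds the E-box CAGATG of neuronal bHLH factors at 2 places, once on each strand, in capitals.

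Mef2c paired MEF2 site: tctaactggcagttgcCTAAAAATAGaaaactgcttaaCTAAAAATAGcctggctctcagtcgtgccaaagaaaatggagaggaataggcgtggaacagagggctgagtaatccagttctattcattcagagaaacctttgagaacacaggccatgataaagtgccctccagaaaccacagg

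Mef2c paired E-box site: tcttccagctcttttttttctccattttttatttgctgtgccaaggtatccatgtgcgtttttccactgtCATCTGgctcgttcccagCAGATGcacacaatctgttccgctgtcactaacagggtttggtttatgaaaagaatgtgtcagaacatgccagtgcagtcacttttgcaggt

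In the longer of each library's deposited peak lists, replicate 1 has 115699 peaks and replicate 2 has 167829, with a median width of 200 bp in both. Footprints numbered 316302 and 366915. The signal of a peak is the authors' value, whose scaling is not stated, and the depth in reads is unknown. Its median over distal peaks was 0.676 in replicate 1 and 0.438 in replicate 2, so that values were ranked within a library and given as percentiles. Promoter peaks in both libraries were found for 8 of 8 excitatory hippocampal neuron markers and 5 of 5 astrocyte markers, against 63.1% of all protein-coding genes. The same held for 4 of 7 microglia, 2 of 6 interneuron, 2 of 6 endothelial, 3 of 5 oligodendrocyte lineage, 1 of 6 striated muscle and 1 of 5 B cell markers. The highest promoter signals in replicates 1 and 2 were 17.7 and 8.35 among the excitatory markers (at Zbtb20, with a median of 3.37 and 2.50 over the list), 4.98 and 1.96 among oligodendrocyte lineage, 3.83 and 1.67 among B cell, 3.75 and 1.97 among astrocyte and 3.46 and 1.19 among muscle markers. They were 1.60 and 1.04 among interneuron, 1.54 and 0.704 among microglia and 1.09 and 0.369 among endothelial markers. Cldn5 (endothelium) and Lhx6 (interneurons) had no promoter peak in either library. The part of any of these cell types in the values at the Mef2 loci was not tested.

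All 4 genes had at least 1 open promoter in both libraries, as did 63.1% of all protein-coding genes. The first promoters of Mef2a and Mef2d had a strong peak over their starts, Mef2b had a strong peak shared with neighbouring genes and a weaker one at its own start, and Mef2c had several weaker peaks. A promoter was a group of annotated transcript starts with neighbours within 500 bp, and it was open where a peak lay within 500 bp of a start. The 4 genes have 20 such promoters, of which 8 were open in both libraries and 12 in neither, so that no promoter was open in a single library. Over all protein-coding genes, 33.4% of 52448 promoters were open in both libraries, with 57.6% of the most upstream promoters of a gene and 16.0% of the later ones. Of the members' upstream promoters 3 of 4 were open, and Mef2c had the closed one. A promoter was open in both libraries in 46.0% of all cases with a protein-coding transcript and in 9.83% of those without one. Open promoters had a median CpG ratio (observed over expected) of 0.683, against 0.214 for promoters closed in both libraries.

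**Figure D1:**
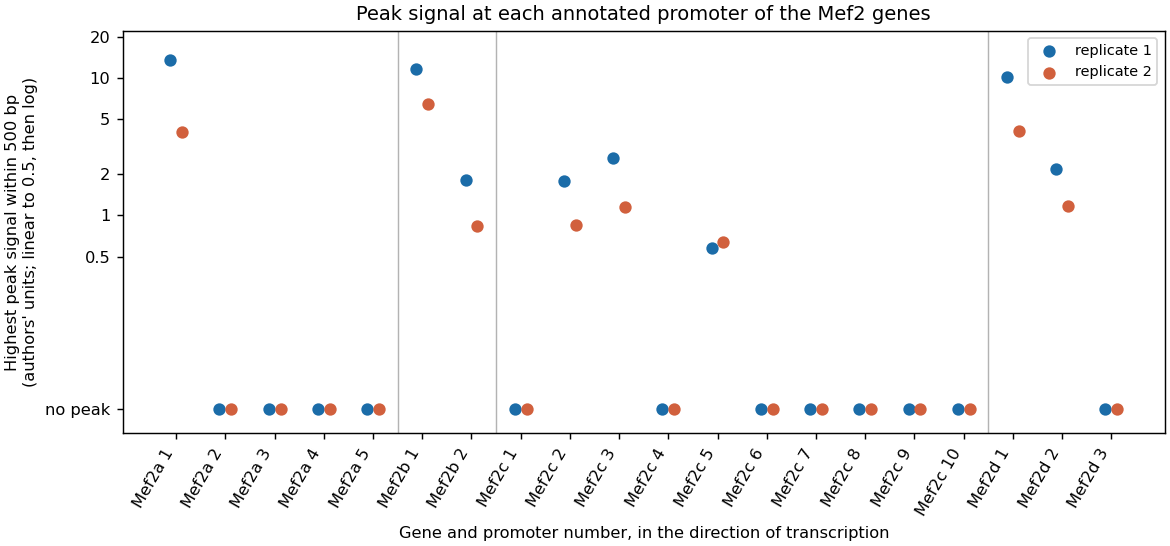
Highest peak signal within 500 bp of each of the 20 annotated Mef2 promoters (y axis, authors' units, linear up to 0.5 and then log), numbered in the direction of transcription (x axis); each point is 1 library. Promoters 1 of Mef2a, Mef2b and Mef2d lie at 10.2 to 13.5 in replicate 1 and 4.08 to 6.45 in replicate 2, the 3 open Mef2c promoters lie lower in both libraries, and 12 promoters have no peak in either.

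Mef2a lies on chromosome 7 at 67231163 to 67372858 on the minus strand, is 142 kb long and has 12 annotated transcripts from 5 promoters. Only its most upstream promoter, with 7 transcripts of which 5 are protein-coding, was open. The peak over it reached 13.5 in replicate 1 and 4.08 in replicate 2, at percentiles 94.4 and 87.4 among promoter peaks. In replicate 1 every base within 500 bp of its starts passed an FDR of 0.05 for the cut rate, and in replicate 2 82.5% did, with 14 and 13 footprints. Its CpG ratio of 0.892 stood at percentile 96.0 of all promoters. A second peak just downstream, at 67372061 to 67372520, was weaker, with 1.25 in replicate 1 and 0.41 in replicate 2. The other 4 promoters, of which 1 has a protein-coding transcript, lie inside the gene 55893 to 106696 bp from the first, and had no peak, no footprint and no base past the FDR in either library.

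The start of Mef2a falls inside the MEF2 consensus printed in its window. That match lies at 67372851 to 67372860, and the annotated start at 67372858. The nearest footprint in replicate 1 ended just below it, at 67372837 to 67372848, and replicate 2 had no footprint within 5 bp. A MEF2 consensus within 30 bp of the first start was found in 26 of the 17502 promoters open in both libraries (0.149%) and in 197 of all 52448 (0.376%). The match was looked up after it had been seen.

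Mef2d, on chromosome 3 at 88142372 to 88172086 on the plus strand, is 29.7 kb long, with 7 transcripts from 3 promoters. Promoter 1, with 5 transcripts of which 4 are protein-coding, ranked below that of Mef2a in replicate 1 and close to it in replicate 2. Signal there was 10.2 in replicate 1 and 4.11 in replicate 2, at percentiles 88.8 and 87.5. All bases around it passed the FDR in replicate 1 and 82.2% in replicate 2, with 16 and 13 footprints and a CpG ratio of 0.858. Printed in capitals above, its longest protected run, 38 bases at 88142279 to 88142316, holds the SP/KLF letters GGGCGG on the minus strand, as CCGCCC. Promoter 2, the start of a non-coding transcript, had a peak 400 bp upstream (2.19 in replicate 1, 1.17 in replicate 2), and promoter 3, also non-coding, was closed.

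Mef2b, on chromosome 8 at 70139711 to 70167488 on the plus strand, is 27.8 kb long, and both its promoters were open. The upstream one has 1 transcript. Its peak stood at 11.7 in replicate 1 and 6.45 in replicate 2, at percentiles 91.8 and 95.8, and lay 271 and 371 bp from the Mef2b start. The same peak covers the start of Rfxank, which encodes a subunit of the RFX complex and runs the other way, and it also lies within 500 bp of the start of Borcs8, which encodes a subunit of the lysosome-positioning BORC complex. Its signal can therefore not be assigned to Mef2b. The NRF1 palindrome printed above lay inside a footprint in both libraries, at 70139241 to 70139264 in replicate 1 and at 70139242 to 70139266 in replicate 2. Those letters were present in 3.32% and 3.07% of all promoter peaks of replicates 1 and 2.

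The promoter that is Mef2b's own carries 4 of its 5 transcripts, all of them protein-coding. Signal there was 1.82 in replicate 1 (percentile 48.3 of promoter peaks) and 0.842 in replicate 2, which equals the median of that library's promoter peaks. In it 27.6% and 26.8% of the bases passed the FDR, with 5 and 3 footprints, and its CpG ratio was 0.354. It was thus much weaker than the shared promoter of the same gene and than the first promoters of Mef2a and Mef2d in both libraries. The first run of capitals in its sequence, 70152717 to 70152727, was protected in both libraries.

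Mef2c, on chromosome 13 at 83504034 to 83667080 on the plus strand, is the longest of the 4, with 163 kb and 31 transcripts from 10 promoters. The most upstream promoter, the start of 6 protein-coding transcripts, was closed: no base within 500 bp passed the FDR and no footprint lay there in either library. Promoter 2, with its start 19439 bp further downstream, had a peak of signal 1.78 in replicate 1 and 0.848 in replicate 2 (percentiles 47.6 and 50.2), which lay 168 and 228 bp past its start. Promoter 3, with 10 starts from 83524291 to 83524920 and 8 protein-coding transcripts, had 3 peaks in each library, of which 1 is also that of promoter 2. Its strongest peak measured 2.63 in replicate 1 and 1.16 in replicate 2, at percentiles 58.2 and 58.9. There 66.4% and 67.5% of the bases passed the FDR, with 10 and 7 footprints, and the CpG ratio was 0.662.

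A further opening of Mef2c, at promoter 5, was small and differed in rank between the libraries. With 2 protein-coding transcripts at 83572348 and 83572381, its peak measured 0.577 in replicate 1 and 0.640 in replicate 2, at percentiles 13.8 and 40.1. FDR bases made up 23.0% and 50.8%. The starts of promoters 6 and 7, just downstream, with 3 and 4 protein-coding transcripts, had no peak in either library. Over the whole gene, Mef2c promoter signal stood at percentiles 51.3 and 51.9 of all genes, against 91.7 and 80.9 for Mef2a, 88.0 and 93.3 for Mef2b and 83.5 and 81.1 for Mef2d. The Mef2b percentiles rest on the peak at Rfxank and Borcs8. At its own promoter Mef2b had 1.82 in replicate 1 and 0.842 in replicate 2, below the strongest Mef2c promoter peak, with 2.63 and 1.16, in both libraries.

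**Figure D2:**
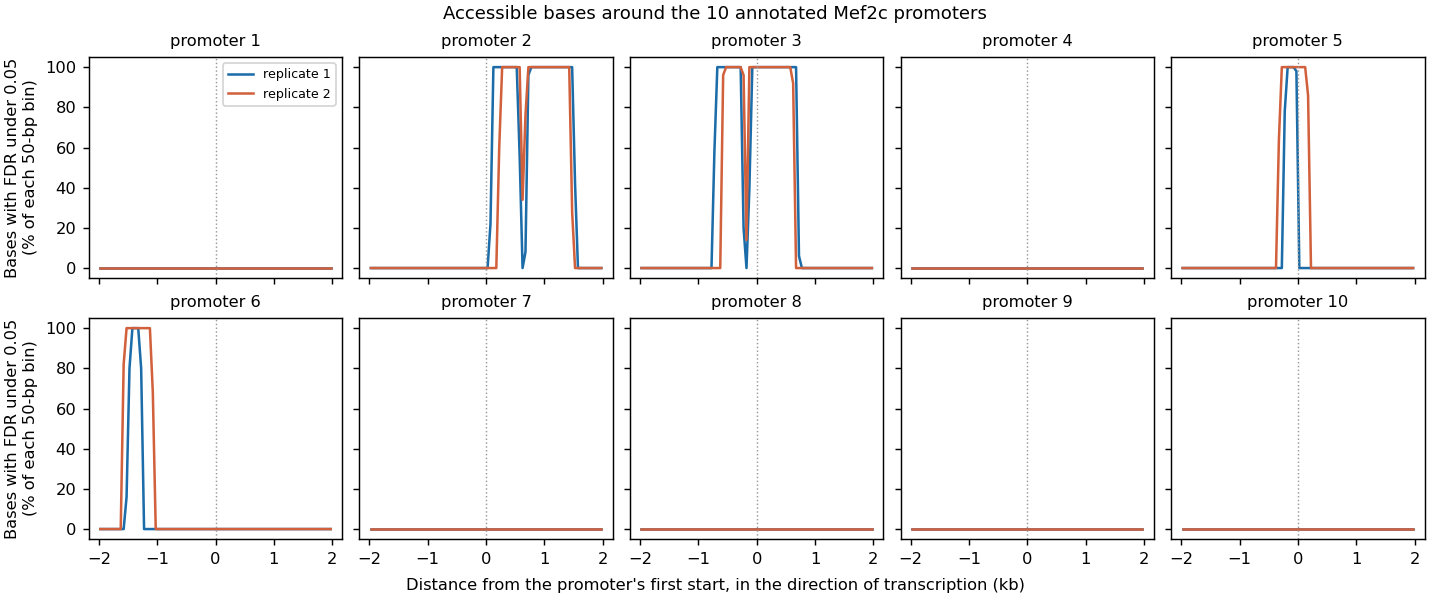
Share of bases with an FDR under 0.05 in 50-bp bins (y axis, %) around the first start of each of the 10 Mef2c promoters (x axis, kb in the direction of transcription), with a line for each library. Both libraries show accessible bases downstream of the start at promoter 2 and on both sides of it at promoter 3. These first starts, at 83523473 and 83524291, lie so close that both panels show the same openings. Another opening lies at the start of promoter 5 and also appears at the left of promoter 6. The panel of promoter 1 is at 0 over the whole window.

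Away from promoters, the loci held 75 distal sites, over 1 kb from any annotated start of any gene, of which 34 were found in both libraries. Across the genome, 35.2% of 151389 distal sites were found in both. The share was 7 of 12 sites at Mef2a (58.3%), 8 of 10 at Mef2b (80.0%), 10 of 26 at Mef2c (38.5%) and 9 of 27 at Mef2d (33.3%). Replicate 1 alone had 9 sites and replicate 2 alone 32, of which Mef2c held 15 and Mef2d 12. Over the 34 shared sites the signals of the libraries had a Spearman correlation of 0.852, and over all 53361 shared distal sites 0.737, a description over sites that share their 2 libraries.

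**Figure D3:**
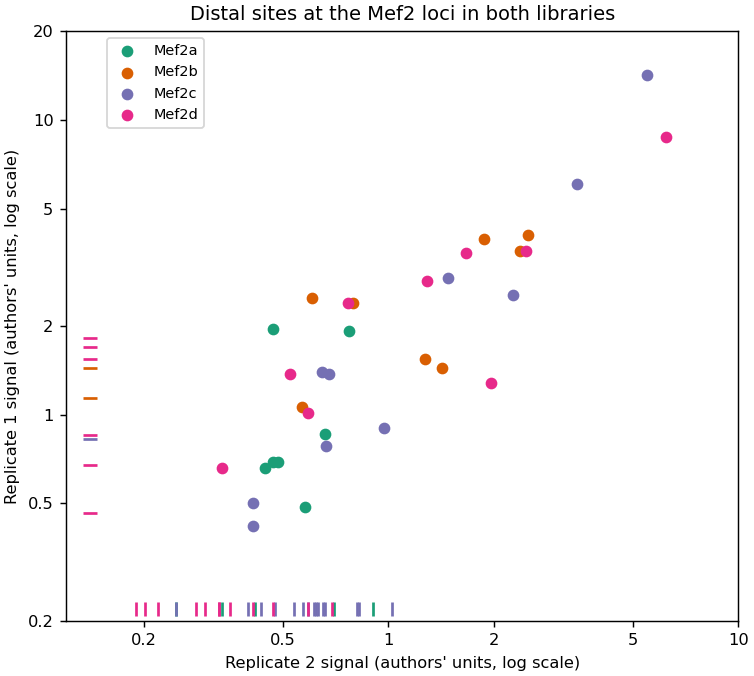
Signal of the distal sites at the 4 loci in replicate 1 (y axis) and replicate 2 (x axis), authors' units on log scales, coloured by gene; ticks along an axis are sites found in that library alone. The Mef2c site at 14.2 and 5.50 and the Mef2d site at 8.76 and 6.21 stand above the rest in both libraries.

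Counted per gene, Mef2d held more distal sites than most genes of its length in both libraries. Mef2b ranked high in replicate 1 and only a little above the middle in replicate 2. Of sites found in both libraries Mef2d had 9 and Mef2b 8, against a median of 3 in the length decile of each, at percentiles 92.9 and 89.2. Mef2c had 10 and Mef2a 7, against a median of 7 in their decile, at percentiles 62.4 and 42.9. By each library's own sites, the percentiles in replicates 1 and 2 were 95.3 and 99.6 for Mef2d, 86.3 and 59.2 for Mef2b, 49.7 and 69.2 for Mef2c and 28.0 and 21.7 for Mef2a. With 20 kb on either side in place of 50 kb, Mef2b had 4 shared sites in place of 8. Per 100 kb of locus, this was 6.94 sites at Mef2d, 6.26 at Mef2b, 3.80 at Mef2c and 2.90 at Mef2a, with a median of 2.05 over all genes. The loci differ in what else they contain. Mef2b shares its locus with 7 other protein-coding genes, and 1 of its 8 shared sites had a Mef2b start as the nearest. Mef2c has no other protein-coding gene in its locus, and 8 of its 10 shared sites lay in the gene body. Mef2d shares its locus with 8 other genes, 1 of them protein-coding. Of its 9 shared sites 4 lay in the gene body, and 6 had a Mef2d start as the nearest.

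**Figure D4:**
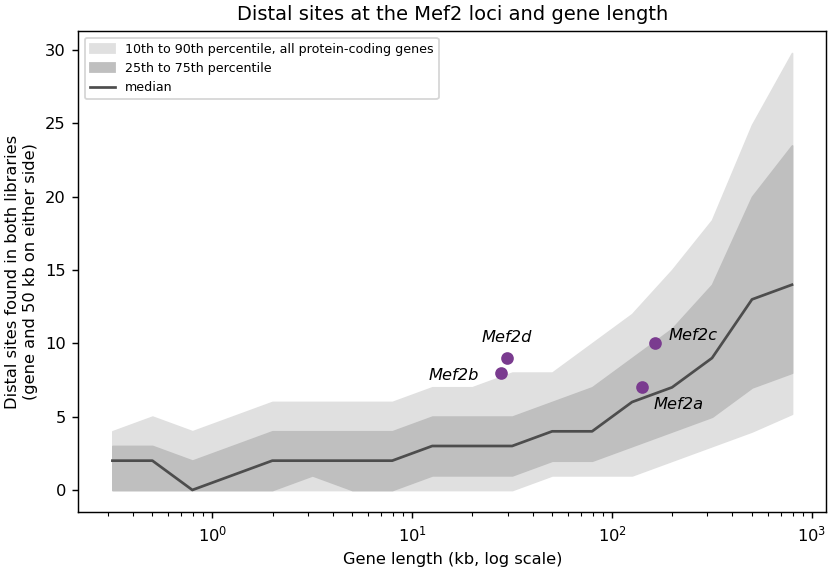
Distal sites found in both libraries in a gene with 50 kb on either side (y axis) against gene length (x axis, kb, log scale); bands and line give percentiles over all protein-coding genes in steps of length. Mef2d with 9 and Mef2b with 8 sites lie above or at the 90th percentile line, while Mef2c with 10 and Mef2a with 7 lie within or at the edge of the middle band.

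The strongest distal site of the family in replicate 1, and the second after a Mef2d site in replicate 2, lay 211136 bp from the 5′ end of Mef2c, beyond its 3′ end, at 83715061 to 83715280. Its signal was 14.2 in replicate 1 and 5.50 in replicate 2, at percentiles 99.88 and 99.90 of distal sites. No annotated gene covers it, and the nearest start, 6101 bp away, is that of the non-coding gene C130071C03Rik and not of Mef2c. The longest protected run of both libraries in the printed sequence spans 47 bases, 83715148 to 83715194. Around it replicate 2 had 6 weaker sites from 83712861 to 83717260, up to the end of the 50 kb flank, with signals of 0.433 to 0.675, and replicate 1 had 1 of them, with 1.38.

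Inside Mef2c, the strongest site, 83654981 to 83655160 in an intron, measured 6.06 in replicate 1 and 3.47 in replicate 2, at percentiles 98.4 and 99.5. Its longest protected run covers 34 bases, 83655057 to 83655090. The site at 83518041 to 83518680 lies in the intron between the closed promoter 1 and the open promoters 2 and 3, with 2.92 and 1.48, at percentiles 92.9 and 92.6. The E-box site, 83537261 to 83537460 where joined over the libraries, had 2.55 and 2.27, at percentiles 91.1 and 97.7. Both of its E-boxes touched a footprint in each library, at 83537351 to 83537381 in replicate 1 and at 83537350 to 83537373 in replicate 2. CAGATG was present in 23.7% and 29.0% of all distal peaks. The strongest site of replicate 1 alone, at 83604441 to 83604600, had 0.828, and that of replicate 2 alone, at 83660823 to 83661000, had 1.03.

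Mef2d had its strongest distal site close upstream, at 88138341 to 88138560, with the nearest start, 3812 bp away, its own. The signal was 8.76 in replicate 1 and 6.21 in replicate 2, at percentiles 99.5 and 99.9. The CRE printed above, at 88138441 to 88138448, overlapped footprints in both libraries. In replicate 1 these were 2 neighbouring footprints that together span 88138419 to 88138452, with a gap between them inside the CRE, and in replicate 2 a single footprint, 88138435 to 88138455, held the whole CRE. TGACGTCA was found in 227 of the 53361 distal sites of both libraries (0.425%), and it was the single match among the members' distal sites. Weaker sites found in both libraries followed. The site at 88181481 to 88181680, intergenic, had 3.59 and 2.47, at percentiles 95.1 and 98.3, and the one at 88152201 to 88152400, in an intron, had 3.54 and 1.67, at percentiles 94.9 and 94.4. Of single-library sites, 88173541 to 88173700 reached 1.82 in replicate 1 and 88140715 to 88140860 reached 0.692 in replicate 2.

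**Figure D5:**
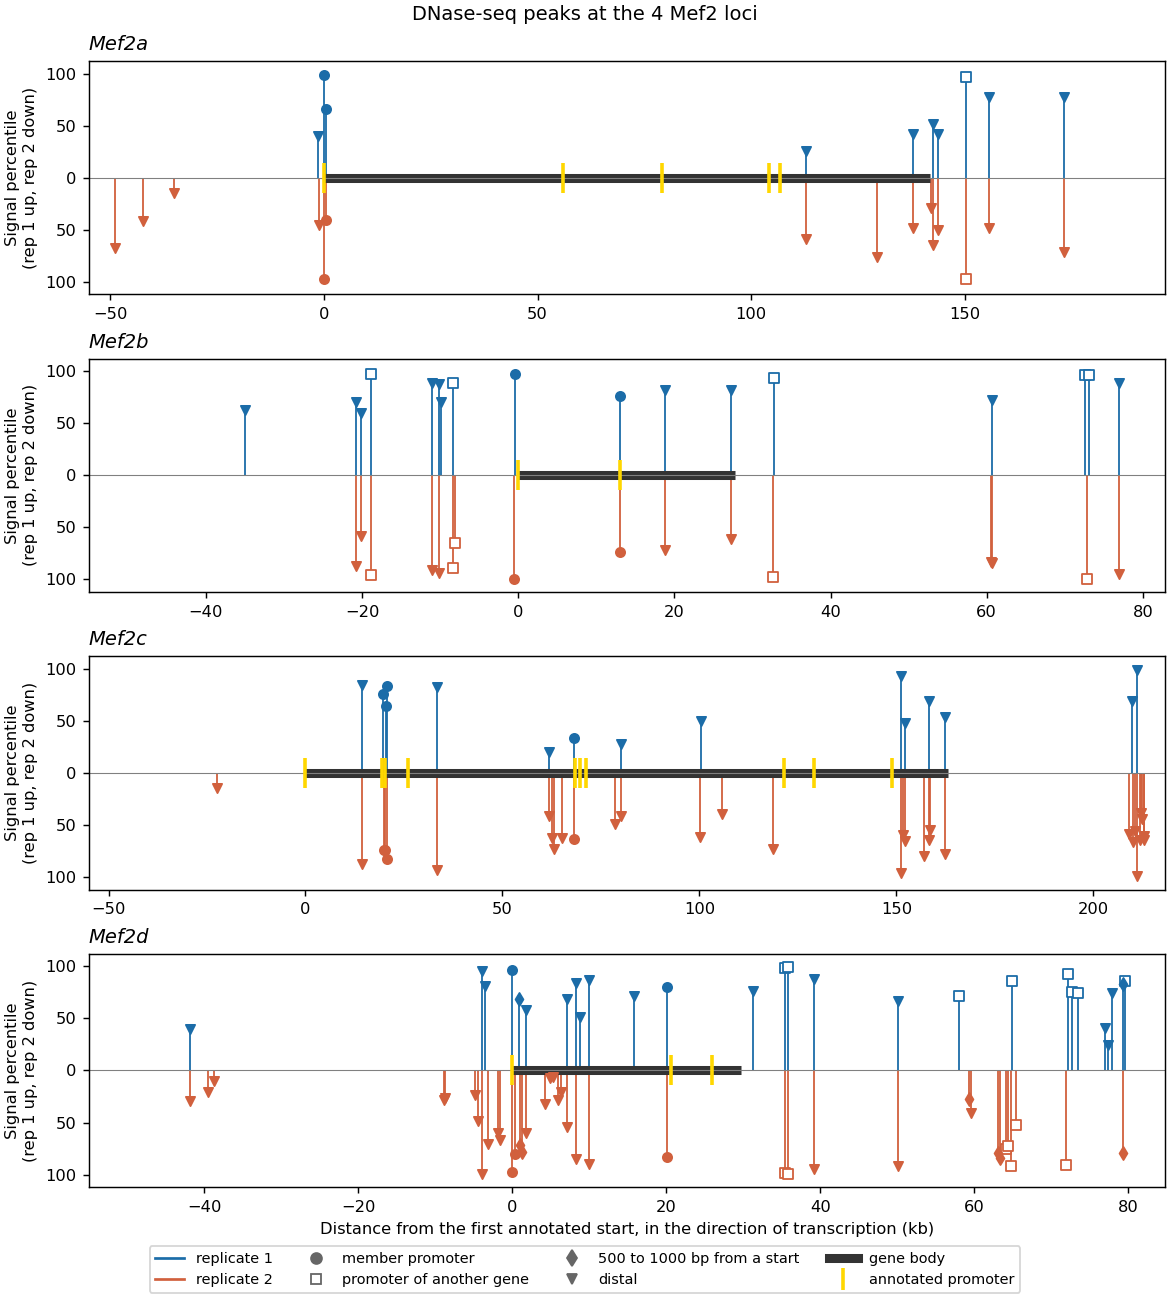
Peaks at the 4 loci by distance from the first annotated start (x axis, kb, in the direction of transcription), with height showing the percentile of signal among all peaks of the library (y axis, replicate 1 upward, replicate 2 downward); dark bars are gene bodies and yellow ticks annotated promoters. Mef2a shows a peak at its first start and a long stretch without peaks, Mef2c has no peak at its first start, and the Mef2d site just upstream of the gene is tall in both libraries.

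Mef2b had 3 distal sites that ranked high in both libraries, and all 3 were intergenic. The site at 70216581 to 70216840 had 4.07 in replicate 1 and 2.51 in replicate 2, at percentiles 96.0 and 98.4, with a start of Slc25a42 as the nearest. Those at 70128501 to 70128720 and 70129361 to 70129660, nearest to Nr2c2ap, had 3.95 and 1.87, and 3.59 and 2.37. Inside the gene body the sites at 70158421 to 70158640, with 2.39 and 0.790, and at 70166801 to 70167040, with 2.49 and 0.606, were found in both libraries. In replicate 1 alone the site at 70129661 to 70130020 had 1.44.

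Among sites found in both libraries, those of Mef2a had the lowest median signal of the 4 genes, 0.691 in replicate 1 and 0.485 in replicate 2. By the smaller of the 2 percentiles its first site was 67199501 to 67199700, which lay beyond the 3′ end and measured 1.92 in replicate 1 and 0.773 in replicate 2, at percentiles 86.6 and 76.3. The next, at 67230301 to 67230580, with 0.859 and 0.658, and at 67217161 to 67217360, with 1.95 and 0.467, lay in introns of Lysmd4 and of the non-coding gene 1700112J16Rik. Only 2 of its 7 shared sites lay in the gene body, which overlaps Lysmd4. The strongest site of replicate 2 alone, 67243241 to 67243440, had 0.906, and replicate 1 had no site of its own.

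The MEF2 consensus, searched on both strands, was found in 0 of 43 distal peaks of the 4 loci in replicate 1, against 1.09% of all distal peaks. In replicate 2 it was found in 7 of 72, or 9.72%, against 3.13% of all. At promoters it was found in 1 of 10 members' peaks in replicate 1, that of Mef2a, against 0.725% of all promoter peaks, and in 2 of 11 in replicate 2, against 1.28%, the second at Mef2c promoter 2. The distal matches at 67230308 to 67230317 (Mef2a) and 70128700 to 70128709 (Mef2b) lay in sites found in both libraries. There the replicate 1 peak did not hold the full match. The other distal matches lay in sites of replicate 2 alone. With so few members' peaks, and with the libraries differing over the distal matches, no pattern of the family was read from these counts. The paired matches in Mef2c, at 83603975 to 83603984 and 83603997 to 83604006, are both CTAAAAATAG, the same letters as at the Mef2a start. That peak had a signal of 0.611 in replicate 2, at percentile 67.1, and a footprint at 83604005 to 83604012 touched the second match.

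Genes that act with the MEF2 proteins were open at their promoters in both libraries in 20 of 22 cases, and described targets in 16 of 16, against 63.1% of all genes. The exceptions were Myod1 and Myog, the muscle factors that partner MEF2 in myogenesis, with no promoter peak in either library. Among partners and regulators many distal sites lay at Tcf4, a bHLH factor, with 55 in replicate 1 and 45 in replicate 2, and at the class IIa deacetylase gene Hdac9, with 18 and 55. Of the described targets, Btg2, an antiproliferative gene, had 14 and 18, and the kinase gene Sgk1 had 8 and 14. These counts grow with gene length. By sites found in both libraries, the percentiles within a gene's length decile were 98.8 for Btg2, 72.4 for Tcf4, 67.2 for Hdac9 and 35.9 for Sgk1. The median number of distal sites found in both libraries was 7 for the partners and 5.5 for the targets, against 3 over all genes, with no matching for gene length.

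By 6 values per gene (the percentiles of promoter signal, distal site number and footprint number in each library), genes near to Mef2a were Secisbp2 and Atp2b1. Those nearest to Mef2b were Sars2, Tuba1b and Dpf2. For Mef2c they were Rims2, Ptprj and Adgrv1, and for Mef2d Ppp1r9b, Drg1 and Lmf1. The nearest distances ran from 3.76 percentile points for Mef2d and Ppp1r9b to 7.97 for Mef2b and Sars2. These are likenesses of 2 libraries only.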

How the data were processed

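The 2 libraries were treated as replicates of 1 group. Per the deposited file listings, the authors made each file from 1 library's alignment to mm10, so no peaks or footprints come from pooled reads. For the aligner and the callers, names and versions were not given in the sources used here. Signal values of the deposited peak lists have an unstated scaling, so they were ranked within a library. The deposited FDR (q-value) files list only runs of bases under 0.05. The score of the deposited footprints is 0.01 in every row, so only positions were used.

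Transcript starts of any biotype (GENCODE M21) were joined into a promoter where neighbours lay within 500 bp. Peaks over 1000 bp from every start were distal, overlapping peaks were joined into a site, and an overlap of at least 1 bp made a site shared. Consensus sequences were searched on both strands in the GRCm38.p6 genome. The MEF2 consensus has 10 letters. The other motifs named are spelled out beside their values. The CpG ratio was measured within 500 bp of a promoter's starts.

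For each member, every promoter with a peak, the 3 distal sites of both libraries with the highest smaller percentile and the strongest site of each library alone are named. From the 2 pathway lists, these are genes with no promoter peak and the 3 with the most distal sites; some genes that this rule or the likeness measure names are not reported here. The members and lists were chosen with earlier results of these data known. Python 3.11.15, numpy 2.4.6 and pandas 2.3.3 were used, and the interval functions were tested on simulated data. No test was run, since there was 1 group. Alternatives covered the peak list, peak number, promoter window, overlap, flank, distance from a start, biotype and replicate.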

Additional observations from a re-analysis of the deposited data

How the results depend on the processing

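Of 60 alternative values of the promoter and distal counts, 45 stayed within 1.5 times the value reported and 15 did not; the cause of a change was not tested unless the setting itself removes sites. With the shorter peak list, distal sites in both libraries numbered 1 in place of 7 at Mef2a, 4 in place of 10 at Mef2c and 5 in place of 9 at Mef2d. In the gene body alone, by construction fewer, they numbered 2 at Mef2a, 2 at Mef2b and 4 at Mef2d. At Mef2b, a flank of 20 kb left 4 of 8 and a distance over 2 kb from a start left 5. A promoter window of 250 bp left 1 of 2 open promoters at Mef2b and 1 of 2 at Mef2d, and protein-coding transcripts alone left 1 at Mef2d. With 1 library left out, the distal sites ranged from 7 to 12 at Mef2a, 8 to 10 at Mef2b, 11 to 26 at Mef2c and 15 to 21 at Mef2d. Taken without replicate 1, Mef2c has 26 sites and not 25, because a replicate 1 peak joins neighbouring replicate 2 peaks. No paired analysis was possible because there is only 1 group. Depth in reads is unknown, so a site missing from a library may lie below its detection limit.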
